A study of Rattus norvegicus with 9 samples.

Results

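The nuclear-encoded oxidative phosphorylation genes are the genes in the cell nucleus for the subunits of the 5 protein complexes that mitochondria use to turn the energy of fuel oxidation into ATP. They were chosen by symbol alone. A gene was a member if its symbol began as those of the complex I subunits (Nduf followed by a, b, c, s or v and a number), was Sdha, Sdhb, Sdhc or Sdhd, or began with Uqcr, with Cox4 to Cox8 or with Atp5, and if it lay above 0 TPM (a transcript abundance scaled by gene length and to 1 total for all libraries) in at least 3 of 9 libraries. This gave 83 members among the 17602 genes of the table and the 16512 genes tested, and every one of the 83 was tested. By complex, 34 belonged to complex I, 4 to complex II, 8 to complex III, 16 to complex IV and 17 to complex V. The other 4 were paralogs or a pseudogene, namely Ndufa4l2, Ndufa10l1, Ndufa13-ps1 and Cox7a2l2.

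Complexes I to IV pass electrons from NADH and succinate to oxygen. Complexes I, III and IV pump protons across the inner mitochondrial membrane as they do so, and complex V, the ATP synthase, lets the protons flow back to make ATP. Most subunits come from nuclear genes, several of which have isoforms that replace one another by tissue: Cox6a2 and Cox8b are the forms of heart and skeletal muscle, Cox4i2 and the Ndufa4 paralog Ndufa4l2 are known as forms that low oxygen induces, and Cox6b2 is best known from testis. The joint tissues studied here hold connective tissue cells as well as fat, and skeletal muscle lies near the joint, so isoforms of muscle were read against muscle genes in the same libraries.

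All 9 libraries came from WT male Lewis rats of 10 to 12 weeks, according to the labels and the study's methods. The intact group (n = 3) was synovium, the lining of the joint, from knees with no surgery, and the sham group (n = 3) was synovium 1 week after sham surgery. The pMx group (n = 3) was regenerating tissue 1 week after partial meniscectomy (pMx), in which part of the meniscus is cut out, taken free from the surrounding synovium. The surgery and the tissue sampled therefore differ together between pMx and the other groups, and their parts cannot be told apart. In the study's RNA quality records, RNA integrity also separated the groups, lowest in intact and highest in pMx, and it cannot be told apart from them. The libraries were labelled as biological replicates, without an animal for each, so p-values measure the spread between these samples. In bulk RNA, fewer cells of a type and less RNA per cell cannot be told apart either.

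Intact replicate 3 stood apart from the other libraries. The 22 skeletal muscle markers, such as Acta1 and Ckm, summed to 65341 TPM in it, against 116 and 415 TPM in intact replicates 1 and 2, 435 to 4593 TPM in sham and 141 to 4708 TPM in pMx. Since TPM keeps no read numbers, the depth behind these values is unknown. Of 8 markers of synovium and fibroblasts, all were above 0 TPM in every group, with sums of 7938 to 10761 TPM in intact, 10833 to 11705 TPM in sham and 19196 to 21922 TPM in pMx. Col1a1, a collagen gene, made up most of the pMx sums with a mean of 15669 TPM, and of the 8 markers limma called 2 higher and 2 lower in pMx against sham (Cd55 by -1.02 and Dcn by -0.94). The 11 white adipocyte markers summed to 3658 to 9511 TPM in intact, 5988 to 7154 TPM in sham and 426 to 689 TPM in pMx. The 3 brown adipocyte markers in the table, Cidea among them, summed to 85.1 to 148, 74.0 to 84.5 and 8.9 to 10.5 TPM in the same groups. The 7 endothelial markers summed to 818 to 1058, 658 to 713 and 529 to 667 TPM in the same order. The 10 macrophage markers summed to 2922 to 4934, 7421 to 8192 and 8153 to 8534 TPM (most of it Lyz2, with 1 marker called higher and 2 lower in pMx against sham). The 8 fibrocartilage markers summed to 491 to 1087, 793 to 879.95 and 1678 to 1906 TPM, with 4 called higher and 1 lower in pMx against sham. The part of these tissue differences in the results on oxidative phosphorylation genes was not tested.

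Members made up 2.58%, 2.53% and 3.99% of all TPM in intact replicates 1 to 3. The share was 2.62%, 2.66% and 2.61% in sham and 2.50%, 2.49% and 2.44% in pMx. The pMx libraries thus lay lowest and intact replicate 3 highest. The sums by complex separated further. Complex I subunits, the entry point for NADH, summed to 7057, 7056 and 10345 TPM in intact, 6985, 7023 and 6873 TPM in sham and 6389, 6310 and 6125 TPM in pMx. Complex II, which links the citric acid cycle to the chain, summed to 704, 661 and 1015 TPM in intact, 664, 652 and 640.3 TPM in sham and 569, 555 and 544 TPM in pMx. In both complexes every pMx library lay below every sham and intact library. Complex IV, cytochrome c oxidase, summed to 7472 to 7562 TPM in sham and 6638 to 6929 TPM in pMx, again without overlap, and to 7239, 6999 and 11737 TPM in intact. Complex III, which hands electrons to cytochrome c, gave 2280 to 2381 TPM in sham and 2179 to 2251 TPM in pMx, close together but without overlap. Complex V came to 8647 to 9011 TPM in sham and 8572 to 8775 TPM in pMx, and these groups overlapped. In intact, complex III came to 2191, 2151 and 3563 TPM and complex V to 8524, 8371 and 13160 TPM, with replicate 3 highest in both.

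**Figure D1:**
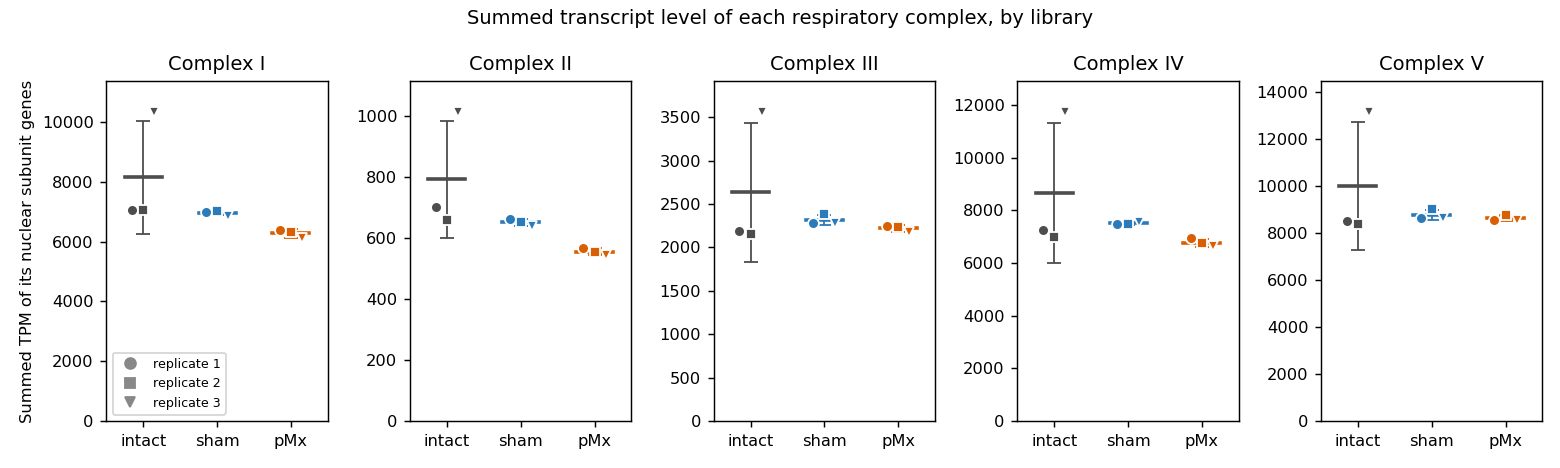
Summed TPM of the nuclear subunit genes of complexes I to V in each library (points, shaped by replicate number), with the mean (line) and SD (bar, n = 3) of the intact, sham and pMx groups; each panel has its own axis from 0. Intact replicate 3 lies highest in every panel, and the pMx libraries lie below the sham libraries in complexes I to IV.

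Within a complex the subunit genes spanned a wide range of levels, which TPM allows to be set side by side because it is scaled per length. In sham, the mean of complex I ran from 46.8 ± 2.63 TPM for Ndufs1 to 472 ± 17.8 TPM for Ndufa13 (SD, n = 3). Complex II ran from 116 TPM for Sdha to 189 TPM for Sdhd, complex III from 116 TPM for the core protein Uqcrc2 to 699 TPM for Uqcr10, and complex V from 218 TPM for Atp5f1d to 938 TPM for Atp5mf. In complex IV, the isoform Cox6b2 was lowest (16.9 ± 3.56 TPM) and Cox4i1 highest (1028 ± 12.5 TPM; SD, n = 3). The paralog Ndufa10l1 was at 0 to 0.17 TPM over the 9 libraries. Ndufs1, Ndufa13, Uqcr10, Atp5f1d and Atp5mf are given here as the ends of these ranges, and reads shared by Ndufa13 and its pseudogene may be split in a way that the sources used here do not give.

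Sequences around the starts of the members show features that the choice by symbol did not use. Promoters were taken from RefSeq (build GRCr8), as 250 bases before to 50 bases after the start of a gene. Of the 83 members 72 matched by gene ID, 70 of them subunits of a complex, and Cox4i2 had no match. Motifs were searched as letters on both strands, and no motif contains another. The 50 bases after the start are part of the gene, and matches there were not counted apart. The letters GCGCA, any base and then GCGC, a site of NRF1, a regulator of respiratory genes, were in 13 of the 70 promoters (18.6%) and in 4.67% of the 27385 other promoters. The letters CCGGAAG of ETS factors such as GABP were in 21 (30.0%, against 9.17% of the others), and AANATGGCG of YY1 in 16 (22.9%, against 3.28%). CAAGGTCA, the site of the estrogen-related receptors, was in 4 (5.71%, against 1.46%). ACGTG, the core of the hypoxia response element, was in 19 (27.1%, against 19.7%). The other promoters were those of all remaining genes in the RefSeq table, also genes not tested here. They were not matched to the members for level or base content, so the shares do not set members against similar genes. A match describes the letters in the window and no binding was measured.

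4 promoters are shown as examples chosen by hand. Sdha, Ndufs4 and Cox4i1 were among the 8 members called lower in pMx against sham, and Ndufa4l2 was called higher. Each promoter shown is written 5′ to 3′ on the strand of its gene, with matches to the 5 motifs in capitals. The Sdha promoter (chr1:30764303-30764602, plus strand) holds the NRF1 letters 3 times. The Ndufs4 promoter (chr2:47794865-47795164, minus strand) holds AANATGGCG once, after the start of the gene and not upstream of it. The Cox4i1 promoter (chr19:65630133-65630432, plus strand) holds CCGGAAG 2 times on the opposite strand, also after the start, and ACGTG once. In the Ndufa4l2 promoter (chr7:65241919-65242218, plus strand) none of the 5 motifs was found. The examples do not stand for all members called lower. The promoter of Ndufb10 held none of the 5 motifs and that of Cox7a2l only ACGTG, while those of Ndufa1, Ndufa7 and Cox8a held CCGGAAG or AANATGGCG.
Sdha: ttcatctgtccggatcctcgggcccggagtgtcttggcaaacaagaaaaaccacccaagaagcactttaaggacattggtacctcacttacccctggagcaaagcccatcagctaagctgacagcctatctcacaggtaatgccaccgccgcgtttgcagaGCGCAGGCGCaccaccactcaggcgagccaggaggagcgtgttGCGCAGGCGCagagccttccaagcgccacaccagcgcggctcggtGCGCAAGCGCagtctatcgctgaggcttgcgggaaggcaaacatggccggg
Ndufs4: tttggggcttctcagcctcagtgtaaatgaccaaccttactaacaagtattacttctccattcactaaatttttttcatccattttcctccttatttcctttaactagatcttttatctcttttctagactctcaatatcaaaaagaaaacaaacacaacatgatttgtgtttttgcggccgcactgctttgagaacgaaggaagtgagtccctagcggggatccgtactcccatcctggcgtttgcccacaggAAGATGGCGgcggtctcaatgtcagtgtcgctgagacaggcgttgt
Cox4i1: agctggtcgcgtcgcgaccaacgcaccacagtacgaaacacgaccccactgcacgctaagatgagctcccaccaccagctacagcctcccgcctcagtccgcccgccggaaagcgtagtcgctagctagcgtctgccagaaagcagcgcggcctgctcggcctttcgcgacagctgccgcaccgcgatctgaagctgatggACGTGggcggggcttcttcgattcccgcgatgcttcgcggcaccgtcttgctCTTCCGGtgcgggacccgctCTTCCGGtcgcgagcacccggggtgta
Ndufa4l2: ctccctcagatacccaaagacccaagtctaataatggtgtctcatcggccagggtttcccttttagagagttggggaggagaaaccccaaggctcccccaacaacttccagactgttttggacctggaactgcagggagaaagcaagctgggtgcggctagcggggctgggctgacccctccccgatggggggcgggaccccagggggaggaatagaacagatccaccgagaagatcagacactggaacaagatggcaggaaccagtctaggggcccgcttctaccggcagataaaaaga

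The comparison of pMx with sham asked how regenerating tissue differed from synovium at the same time after surgery. On the scale of log2(TPM + 1), limma fitted over all 9 libraries called 2 members higher and 8 lower at an adjusted p below 0.05, which is 2.41% and 9.64% of the 83. Over all 16512 genes, 17.7% were called higher and 18.9% lower. The 2 higher members, Cox4i2 and Ndufa4l2, were also the only ones past the DEG thresholds (adjusted p below 0.05 with a log2 fold change beyond 1 in either direction), which 8.21% of all genes passed. The 8 lower members were Ndufa1, Ndufa7, Ndufb10 and Ndufs4 of complex I, Sdha of complex II, and Cox4i1, Cox7a2l and Cox8a of complex IV. Ndufa7 and Ndufb10 are named here after their values were seen. In complexes III and V the adjusted test called 0 members, against 1 in complex III and 0 in complex V at an unadjusted p below 0.05.

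The count of lower members depended on intact replicate 3. Without that library, which is in neither group of this comparison, limma called 30 members lower (36.1%) and 5 higher (6.02%), beside 23.3% and 22.0% of all genes. The 30 included the 8 called before and the 5 included both earlier ones. They comprised 15 of 34 members of complex I, 3 of 4 of complex II, 2 of 8 of complex III, 6 of 16 of complex IV and 4 of 17 of complex V. For Ndufa4 the SE was 0.21 with that library and 0.06 without it. The fold changes themselves stayed as they were, with a median of -0.08 over members and -0.01 over all genes. Quantile normalization gave medians of -0.14 and 0.03. By single libraries, 36 members were lower in every pMx than in every sham library and 8 were higher in every one, whereas 29.0% and 27.0% of all genes did so.

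**Figure D2:**
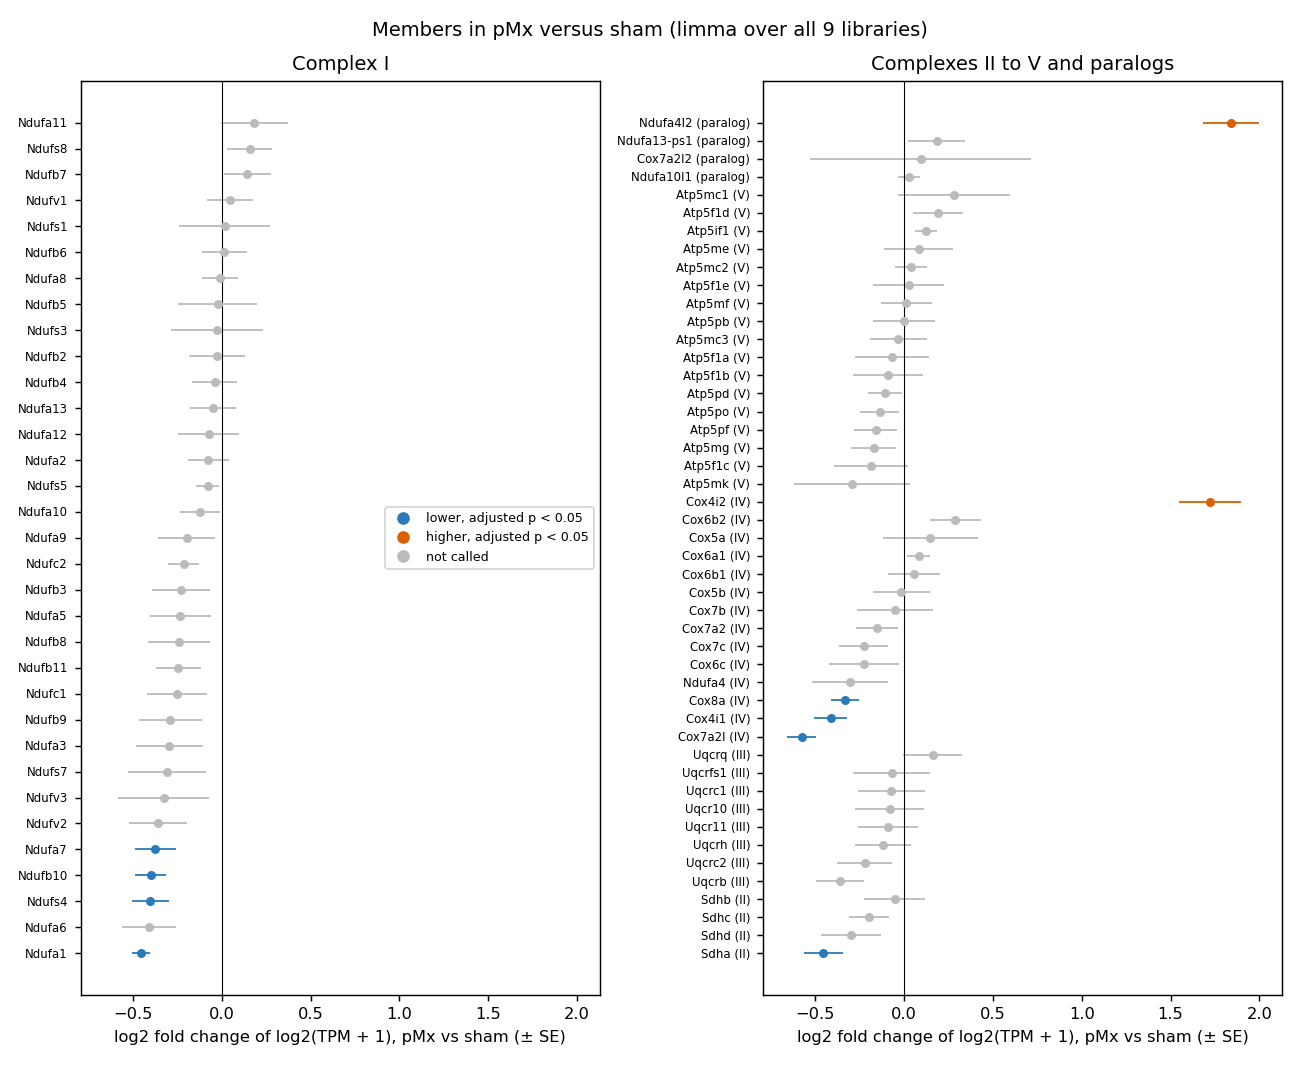
Log2 fold change of pMx against sham on the log2(TPM + 1) scale for most members (points, with bars of 1 SE), from limma over all 9 libraries; complex I is on the left, the other complexes (named in brackets) and paralogs on the right, and Cox6a2 and Cox8b are left out for their wide errors. Ndufa4l2 (1.84) and Cox4i2 (1.72) lie far above 0, and the 8 members called lower lie between -0.58 and -0.33.

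Cox4i2, the alternative form of the Cox4 subunit that regulates cytochrome c oxidase, was at 23.4, 24.6 and 20.9 TPM in intact, 28.3, 31.1 and 20.5 TPM in sham and 92.1, 72.6 and 105 TPM in pMx. All pMx libraries lay above all others, and intact and sham overlapped. The log2 fold change was 1.72 (SE 0.17, adjusted p = 0.000162, limma) against sham and 1.91 (SE 0.17, adjusted p = 3.79e-05, limma) against intact. Cox4i1, the common form, was at 944, 949.7 and 1174 TPM in intact, 1016, 1026 and 1041 TPM in sham and 794, 774 and 744 TPM in pMx. It was lowest in the pMx libraries, without overlap, with a log2 fold change of -0.41 against sham (SE 0.09, adjusted p = 0.00775, limma). Of the summed TPM of both forms, Cox4i2 made up 2.42%, 2.52% and 1.75% in intact, 2.71%, 2.94% and 1.93% in sham and 10.4%, 8.58% and 12.4% in pMx. Cox4i1 therefore remained the main transcript of the pair in every library.

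The other isoform pair that parted was Ndufa4 and Ndufa4l2. Ndufa4, once counted with complex I and now with complex IV, was at 265, 227 and 453 TPM in intact, 261, 262 and 247 TPM in sham and 207, 217 and 199.8 TPM in pMx. Ndufa4l2 was at 60.3, 50.8 and 40.7 TPM in intact, 74.2, 83.6 and 64.5 TPM in sham and 284, 229.5 and 290.5 TPM in pMx. The pMx libraries were lowest for the former and highest for the latter, with no overlap with sham in either. Ndufa4l2 rose by 1.84 on the log2 scale against sham (SE 0.16, adjusted p = 7.92e-05, limma) and by 2.39 against intact (SE 0.16, adjusted p = 7.75e-06). Ndufa4 had a log2 fold change of -0.30 against sham (SE 0.21, adjusted p = 0.311, limma), which became an adjusted p of 0.00647 without intact replicate 3. Ndufa4l2 made up 18.5%, 18.3% and 8.24% of the pair in intact, 22.2%, 24.2% and 20.7% in sham and 57.8%, 51.4% and 59.3% in pMx. In pMx it was thus the more abundant transcript of the pair in all 3 libraries, and in no library of the other groups.

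**Figure D3:**
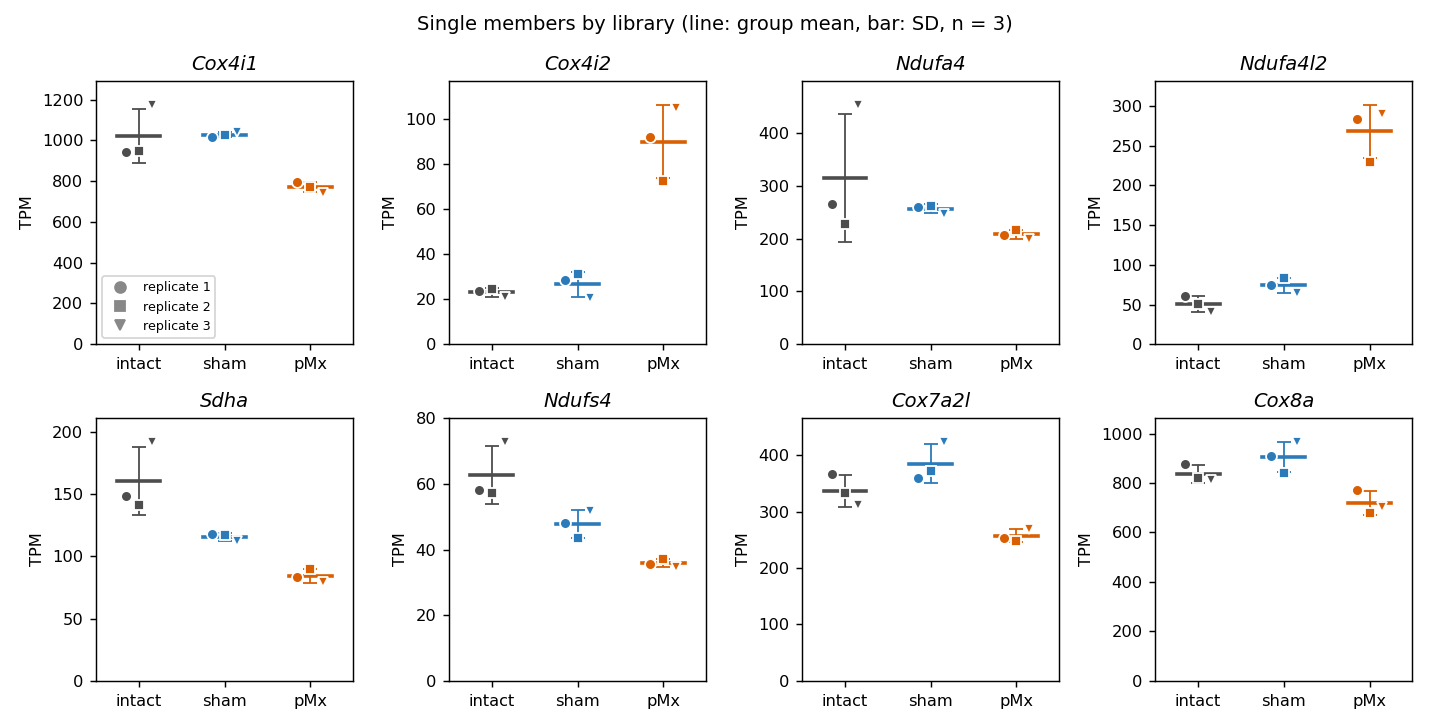
TPM of 8 members in each library (points, shaped by replicate number), with the mean (line) and SD (bar, n = 3) of the intact, sham and pMx groups; axes start at 0. Cox4i2 and Ndufa4l2 are highest in the 3 pMx libraries, and Cox4i1, Ndufa4, Sdha, Ndufs4, Cox7a2l and Cox8a are lowest there.

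Among the other common subunits of complex IV, some fell and others did not pass the test. Cox7a2l, also known as a factor for joining complexes III and IV into supercomplexes, was at 367, 333 and 311 TPM in intact, 360.3, 372 and 424 TPM in sham and 254, 248 and 269.7 TPM in pMx. It fell by 0.58 on the log2 scale in pMx against sham (SE 0.08, adjusted p = 0.000989, limma), the largest decrease among members in that comparison. A paralog, Cox7a2l2, was at 2.29 to 20.0 TPM, and how reads of such near copies were split is not given in the sources used here. Cox8a, the common form of subunit 8, was at 842 to 966 TPM in sham and 680.0 to 773 TPM in pMx and fell by 0.33 (SE 0.08, adjusted p = 0.0109, limma). Cox6a1, a partner of the common oxidase, was instead at 917 to 938 TPM in sham and 968 to 1005 TPM in pMx, with a log2 fold change of 0.08 (SE 0.06, adjusted p = 0.358, limma). Cox5a and Cox5b, subunits near the catalytic core, had log2 fold changes of 0.15 and -0.02 with adjusted p of 0.716 and 0.949 in limma.

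Complex II, or succinate dehydrogenase, has 4 nuclear subunits and none from mitochondrial DNA. Sdha, its flavoprotein and the subunit that oxidizes succinate, was at 149, 141 and 192 TPM in intact, 118, 117 and 112 TPM in sham and 83.5, 89.96 and 79.1 TPM in pMx. The 3 groups did not overlap, with intact highest and pMx lowest. Sdha fell by 0.46 on the log2 scale in pMx against sham (SE 0.11, adjusted p = 0.0116, limma), by 0.46 in sham against intact (SE 0.11, adjusted p = 0.0307) and by 0.91 in pMx against intact (SE 0.11, adjusted p = 0.000175). The call of sham against intact was lost in 7 of 18 alternatives, among them leaving out any one sham library or pMx replicate 1, with an adjusted p of up to 0.0927 in limma. Sdhb, the iron-sulfur subunit, stayed closer together, at 163 to 184 TPM in sham and 161 to 173 TPM in pMx (log2 fold change -0.05, SE 0.17, adjusted p = 0.841, limma). The membrane anchors Sdhc and Sdhd were lower in all pMx than in all sham libraries, with log2 fold changes of -0.20 and -0.30. Their adjusted p was 0.204 and 0.201 over all 9 libraries and 0.0102 and 0.00121 without intact replicate 3 (limma).

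In complex I, Ndufs4, an accessory subunit needed for a stable and active complex, was at 58.0, 57.4 and 72.9 TPM in intact, 48.1, 43.4 and 51.8 TPM in sham and 35.7, 37.2 and 34.7 TPM in pMx. Like Sdha it formed 3 groups without overlap. It fell by 0.40 in pMx against sham (SE 0.10, adjusted p = 0.0151, limma), and leaving out sham replicate 3 or pMx replicate 3 took it out of the calls, with an adjusted p of up to 0.0599. Ndufa1, a small membrane-arm subunit encoded on the X chromosome, was at 444, 419 and 443 TPM in intact, 433, 449 and 455 TPM in sham and 317, 328 and 329.5 TPM in pMx. Intact and sham overlapped, and pMx lay below both, with a fall of 0.46 against sham (SE 0.05, adjusted p = 0.000278, limma). Ndufa7 and Ndufb10, accessory subunits, had log2 fold changes of -0.37 and -0.40 in that comparison, and Ndufa7 lost the call without any one sham library and without pMx replicate 1 or 2 (adjusted p of up to 0.125 in limma).

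Most of the catalytic subunits of complex I carry its flavin and iron-sulfur clusters or bind quinone. Among the catalytic subunits, Ndufs1, Ndufs3, Ndufs7, Ndufs8, Ndufv1 and Ndufv2 gave no call between pMx and sham over all 9 libraries, with an adjusted p of 0.121 to 0.97 in limma. Ndufs1, the largest subunit, was at 49.1, 47.3 and 43.9 TPM in sham and 48.4, 47.2 and 46.3 TPM in pMx. Ndufv2, an iron-sulfur subunit of the NADH-oxidizing end, was at 200.2, 204 and 216 TPM in sham and 171, 175 and 138 TPM in pMx. Ndufs7, near the quinone site, was at 153, 151 and 144 TPM in sham and 127, 119 and 117 TPM in pMx. For the latter pair the groups did not overlap, and without intact replicate 3 the adjusted p was 0.0115 for Ndufv2 and 0.00168 for Ndufs7 (limma). Ndufs8 was higher in all pMx libraries (122 to 132 TPM) than in all sham libraries (105 to 117 TPM), with an adjusted p of 0.379 in limma.

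In complexes III and V the test over all 9 libraries called no member between pMx and sham. Uqcrfs1, the Rieske iron-sulfur protein of complex III, was at 157, 160.2 and 149 TPM in sham and 146, 150.2 and 146 TPM in pMx, which overlapped. Uqcrb, the ubiquinone-binding protein, was at 126, 131 and 144 TPM in sham and 104, 105 and 102 TPM in pMx, and its log2 fold change of -0.36 (SE 0.14, adjusted p = 0.0688, limma) was called without intact replicate 3 (adjusted p = 0.00123). Atp5f1a and Atp5f1b, the alpha and beta subunits at which ATP is made, were at 403 to 439.7 and 669.6 to 734 TPM in sham and at 389.7 to 419 and 651 to 664 TPM in pMx. Their log2 fold changes of -0.07 and -0.09 had adjusted p of 0.835 and 0.764 in limma. Atp5if1, which blocks ATP hydrolysis by the enzyme, was at 562, 524 and 545 TPM in sham and 585, 592 and 598 TPM in pMx (log2 fold change 0.12, SE 0.06, adjusted p = 0.144, limma).

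The rotor subunit c of complex V comes from 3 genes that encode the same mature protein. Atp5mc1 was at 241, 231 and 221 TPM in sham and 289, 267 and 287 TPM in pMx, above sham in every library. Its log2 fold change of 0.28 had an SE of 0.31 and an adjusted p of 0.534 in limma, and an adjusted p of 0.00297 without intact replicate 3. Atp5mc2 was at 593 to 663 TPM in sham and 605 to 662 TPM in pMx, and Atp5mc3 at 447 to 468 TPM and 424 to 461 TPM. Both overlapped between the groups. Of the sum of the 3 genes, Atp5mc1 made up 18.8%, 17.0% and 17.3% in sham, 20.7%, 20.0% and 21.1% in pMx, and 17.4%, 17.6% and 28.4% in intact, with intact replicate 3 again highest.

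The muscle isoforms followed the muscle genes from library to library. Cox6a2 was listed at 0 in intact replicate 1, while replicates 2 and 3 had 4.85 and 839.8 TPM. It was at 36.2, 74.3 and 7.52 TPM in sham and at 77.3, 82.6 and 2.0 TPM in pMx. Cox8b was at 3.64, 7.76 and 1338 TPM in intact, 30.7, 73.1 and 10.2 TPM in sham and 57.0, 79.1 and 2.92 TPM in pMx. Intact replicate 3 was far above every other library for both, and every group held a library at or under 10.2 TPM for both. The sum of both isoforms and the sum of the 22 muscle markers ranked the 9 libraries in the same order, and the isoforms came to between 3.04% and 4.08% of the marker sum in each. Neither isoform was called in any comparison (adjusted p of 0.84 to 0.982 for Cox6a2 and 0.858 to 0.961 for Cox8b in limma). With a skeletal muscle score as covariate, Cox6a2 was called in sham against intact (adjusted p = 0.0361) and in pMx against intact (adjusted p = 0.013) in limma. That score averages the same 22 markers, and Cox6a2 was at 0 and 4.85 TPM in intact replicates 1 and 2. No difference apart from muscle was therefore read from these calls. In intact replicate 3, Cox6a2 was 49.0% of both Cox6a forms and Cox8b 62.2% of both Cox8 forms, against at most 7.86% and 10.4% in any other library. Cox7a1, the muscle form of subunit 7a, and the genes of mitochondrial DNA were not analysed here.

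**Figure D4:**
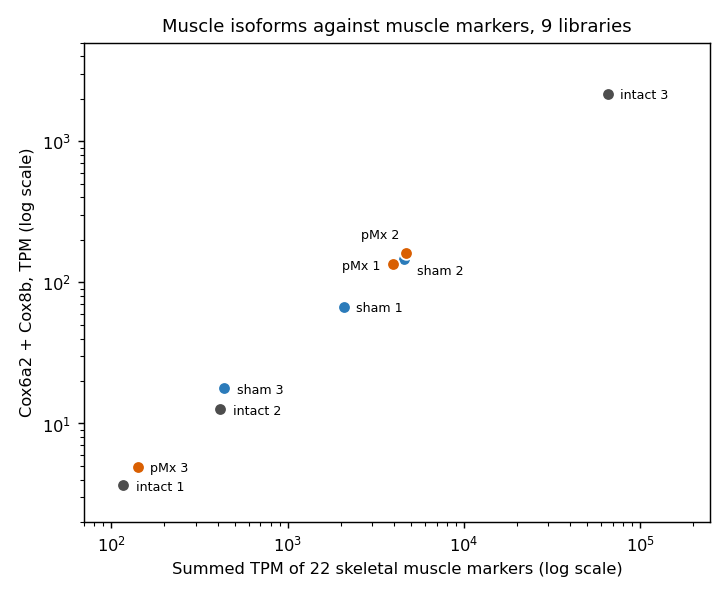
Summed TPM of Cox6a2 and Cox8b (vertical, log scale) against the summed TPM of 22 skeletal muscle markers (horizontal, log scale), 1 point for each of the 9 libraries, coloured by group. The points run from intact replicate 1 (3.64 against 116 TPM) to intact replicate 3 (2178 against 65341 TPM).

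Common members were raised in that library as well, though far less. Relative to the mean of intact replicates 1 and 2, the 79 subunits of the complexes had a median ratio of 1.52 in intact replicate 3, with 73 above 1 and 43 above 1.5, whereas the median over the 13175 genes with a mean of 1 TPM or more, and not at 0 in both other intact libraries, was 0.868. Every subunit of complex I (34 of 34), complex II (4 of 4) and complex III (8 of 8) was above 1, as were 16 of 17 in complex V and 11 of 16 in complex IV. Median ratios were 1.51, 1.48, 1.58, 1.44 and 1.57 for complexes I to V, and 1.39 in complex IV without Cox6a2 and Cox8b. Atp5mc1 had a ratio of 2.55, Cox5a 2.18, Ndufs1 2.15 and Uqcrfs1 1.90. The members below 1 in the complexes were Atp5if1 (0.979) and, in complex IV, Cox6b2 (0.992), Cox8a (0.959), Cox6a1 (0.906), Cox7a2l (0.889) and Cox4i2 (0.872). Cox8a and Cox6a1 are the common counterparts of the muscle isoforms. Ndufa4l2, outside the complexes, had a ratio of 0.734.

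The comparison of sham with intact asked what surgery without meniscus removal changed in synovium. It shares the sham libraries with the comparison above. Limma called 0 members higher, against 3 at an unadjusted p below 0.05, and 3 lower (3.61%), beside 6.73% and 5.97% of all genes. The lower members were Sdha, Ndufs4 (log2 fold change -0.38, SE 0.10, adjusted p = 0.0453, a call lost in 12 of 18 alternatives) and the pseudogene Ndufa13-ps1, which was under 1 TPM in every library. The pseudogene was listed at 0 in all sham libraries and in pMx replicates 1 and 2, so it entered the test through the intact group and its calls against intact support nothing. In limma 0 members passed the DEG thresholds, also 0 with an unadjusted p, and 1.96% of all genes did. The count of lower members fell to 0 when any one sham library was left out and to 1 without intact replicate 2 or pMx replicate 1, and it was 6 without intact replicate 1. Of all genes, 1.88%, 1.48% and 3.06% were called lower without sham replicates 1, 2 and 3. The share was 2.45% without intact replicate 2, 3.89% without pMx replicate 1 and 4.40% without intact replicate 1. Without intact replicate 3 the count of lower members was again 3, of which 2 (Sdha and Ndufs4) were shared, and 3 members were called higher, beside 11.7% of all genes lower and 6.25% higher. A skeletal muscle score as covariate gave a larger count of lower members, printed with the other alternatives below, beside 10.6% of all genes lower. Ndufa4l2 was higher in all sham than in all intact libraries, with a log2 fold change of 0.55 (SE 0.16, adjusted p = 0.0539, limma). By single libraries, 20 members were lower in all sham than in all intact libraries and 2 were higher, beside 16.4% and 14.2% of all genes.

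The comparison of pMx with intact combined surgery and tissue, and it shares its libraries with both others. Limma called 26 members lower (31.3%) and 3 higher (3.61%), beside 27.1% and 23.4% of all genes. The 26 were 14 of 34 in complex I, 3 of 4 in complex II, 2 of 8 in complex III, 4 of 16 in complex IV, 2 of 17 in complex V and the pseudogene, whose call was lost in 8 of 17 alternatives. Among them were Ndufs4 (log2 fold change -0.78, SE 0.10, adjusted p = 0.000292), Ndufv2 (-0.72, SE 0.16, adjusted p = 0.00635) and Uqcrb (-0.65, SE 0.14, adjusted p = 0.004), all in limma. Sdhc and Sdhd, with log2 fold changes of -0.39 and -0.49, were also among them, but Sdhd lost the call in 8 of 18 alternatives, including without any one sham or pMx library, and Sdhc in 3, including without pMx replicate 2. The 3 higher members were Cox4i2, Ndufa4l2 and Cox6b2, an isoform of the Cox6b subunit at the outer face of complex IV. Cox6b2 was at 12.6, 11.3 and 11.9 TPM in intact, 15.3, 20.9 and 14.4 TPM in sham and 18.6, 19.9 and 23.4 TPM in pMx. Its log2 fold change was 0.74 (SE 0.14, adjusted p = 0.00254, limma), and the intact libraries lay below all others. Only Cox4i2 and Ndufa4l2 passed the DEG thresholds, which 14.3% of all genes passed. By single libraries, 40 members were lower in all pMx than in all intact libraries and 4 were higher, beside 30.6% and 26.9% of all genes.

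Leaving out intact replicate 3 moved the size of these differences. The median over members went from -0.34 to -0.13 in pMx against intact and from -0.19 to 0.01 in sham against intact, and the medians over all genes were -0.03 and -0.02 with it and -0.05 and -0.05 without it. In pMx against intact, 31 members were then called lower (37.3%) and 9 higher (10.8%), beside 31.4% and 22.6% of all genes. Of the 26 members lower over all 9 libraries, 25 were among the 31. The additional higher members included Ndufa11 (0.41, adjusted p = 0.00454), Atp5mc1 (0.34, adjusted p = 0.00156) and Cox5a (0.34, adjusted p = 0.00694), on the log2 scale in limma. Those 3 genes had been at 0.16, -0.11 and -0.04 with that library in the fit. The count of lower members in pMx against intact was 16 without pMx replicate 1 and 15 without pMx replicate 2, beside 23.0% and 23.1% of all genes.

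**Figure D5:**
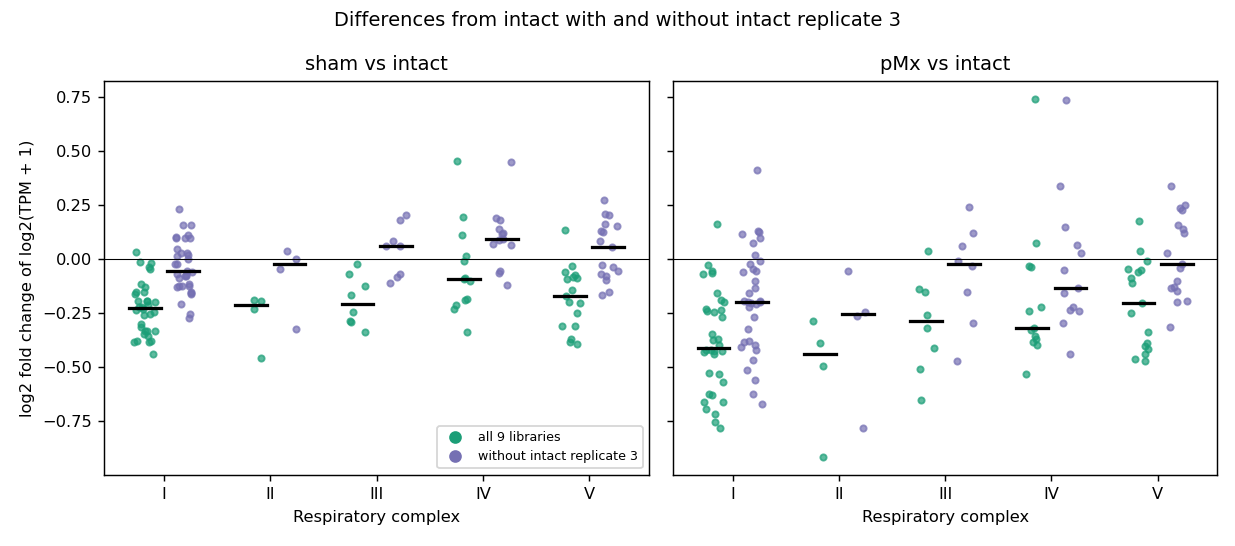
Log2 fold change of members by complex, on the log2(TPM + 1) scale, in sham against intact (left) and pMx against intact (right), with all 9 libraries (green) and without intact replicate 3 (purple); each point is 1 member, the black line is the median of the points drawn, and Cox6a2, Cox8b and Cox4i2 are left out for scale. In both panels the medians move up without that library, and in pMx against intact complexes I and II stay mostly below 0.

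Genes that build and serve the complexes were counted from lists written from general knowledge. Of 49 assembly factors tested, 0 rose and 12 fell in pMx against sham in limma (2 and 15 at an unadjusted p below 0.05), with a median log2 fold change of -0.03. The falls included Tmem70 (-0.67, SE 0.10), which helps to assemble complex V, Surf1 (-0.64, SE 0.07), a factor of complex IV, and Coa5 (-0.61, SE 0.15) and Fmc1 (-0.57, SE 0.12), factors of complexes IV and V. Surf1 was at 50.8, 52.0 and 46.4 TPM in intact, 38.5, 35.7 and 39.2 TPM in sham and 24.5, 24.3 and 22.7 TPM in pMx, so that its groups did not overlap. Ndufaf2, an assembly factor of complex I, fell by 0.76 in sham against intact (SE 0.14, adjusted p = 0.015, limma) and by 1.31 in pMx against intact (SE 0.14, adjusted p = 0.000109). In pMx against intact 2 assembly factors rose and 19 fell, and in sham against intact 1 rose and 4 fell. Of all genes, 17.7% were called higher and 18.9% lower in pMx against sham. The shares were 23.4% and 27.1% in pMx against intact and 6.73% and 5.97% in sham against intact. Without intact replicate 3, limma called 2 higher and 14 lower in pMx against sham, 4 and 17 in pMx against intact and 2 and 4 in sham against intact. The shares of all genes were then 22.0% and 23.3%, 22.6% and 31.4%, and 6.25% and 11.7% in the same order.

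Of 20 regulators of mitochondrial biogenesis, 3 rose and 2 fell in pMx against sham. Pprc1, a coactivator of the PGC-1 family, rose by 0.84 (SE 0.09, adjusted p = 0.000208, limma). Tfam, which packages and transcribes mitochondrial DNA, fell by 0.35 (SE 0.10, adjusted p = 0.0283). The other fall was in Ppara, a nuclear receptor for fatty acids, which was under 1 TPM in every sham and pMx library. Without intact replicate 3, limma called 4 regulators higher and 6 lower in pMx against sham, 4 and 6 in pMx against intact and 0 and 1 in sham against intact. Against intact, over all 9 libraries, 3 rose and 6 fell in pMx, and 0 passed in either direction in sham (2 higher and 1 lower at an unadjusted p below 0.05, limma). Of 14 electron carriers and exchange proteins, 0 rose, also 0 at an unadjusted p, and 2 fell in pMx against sham, namely Etfb (-0.54, SE 0.09) and Etfa (-0.50, SE 0.09), the subunits of the flavoprotein that brings electrons from fat oxidation. Against intact 1 rose and 4 fell in pMx, and Ucp2 alone passed in sham, where it was higher by 0.28 (SE 0.06, adjusted p = 0.0279, limma). Leaving out intact replicate 3, 3 carriers were called higher and 2 lower in pMx against sham, 3 and 3 in pMx against intact and 1 and 0 in sham against intact. The share of all genes called in these comparisons is as given above.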

How the data were processed

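BGI sequenced the poly(A) RNA, and the authors analyzed the data in Dr. Tom, the BGI system. The submitters' processing notes name HISAT2 2.0.4 and the rat build mRatBN7.2; the counting tool and annotation are not given in the sources used here. The values deposited by the authors are TPM for 17602 genes, scaled to the same total in each library, so a rise in abundant genes lowers the others. All 9 columns were mapped to samples by title.

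From these, log2(TPM + 1) was taken for the 16512 genes that 3 or more libraries list above 0 and fitted with limma 3.58.1 (R 4.3.3: lmFit, contrasts.fit, and eBayes whose prior followed a trend with mean expression) with 1 mean per group over all 9 libraries and Benjamini-Hochberg adjustment over all genes of a comparison. Fold changes on this scale understate changes of genes near 1 TPM. DEG thresholds were those of the study, whose test is not named: adjusted p below 0.05 with a log2 fold change beyond 1 in either direction. The calculation was tested on simulated data. Groups came from the sample titles.

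Members were chosen by symbol, and 1 of them is counted but its own values are not reported here. Members and gene lists were chosen with earlier results of these data known. Genes named are isoforms, catalytic subunits, DEGs and, for each complex and comparison, the members with the highest and lowest fold change; in other lists, up to 4 called genes with the largest change among those averaging 1 TPM or more. Ppara was named after its values were seen. Another 8 members were named after their values were seen: Ndufa7, Ndufb10, Ndufa13, Uqcr10, Atp5mf and the paralogs Cox7a2l2, Ndufa10l1 and Ndufa13-ps1. Alternatives were a pseudocount of 0.1, only genes averaging 1 TPM or more, all genes unfiltered, rescaling by median of ratios or by quantiles, a fit on 6 libraries, no trend, the replicate number as a block, a muscle score as covariate and leaving out each library. Tables were handled in Python 3.11.15 with pandas 2.3.3, and figures drawn with Matplotlib 3.10.9. Promoters came from a RefSeq table of GRCr8, another build than the authors used, and were matched by gene ID.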

Additional observations from a re-analysis of the deposited data

How the results depend on the processing

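The median over members was -0.31 to 0.01 in sham against intact and -0.44 to -0.13 in pMx against intact when 1 library was left out, the highest in both without intact replicate 3. Fitting only the 6 libraries compared gave 5 higher and 29 lower members in pMx against sham (2 and 8 over all 9 libraries), 1 lower in sham against intact (3) and 17 lower in pMx against intact (26). Of all genes, that fit called 21.2% higher and 23.4% lower in pMx against sham. It called 1.70% lower in sham against intact and 24.1% lower in pMx against intact. A skeletal muscle score as covariate gave 16 lower in pMx against sham, 2 higher and 16 lower in sham against intact with 1 past the DEG thresholds, and 47 lower in pMx against intact. Of all genes, 21.6% were then lower in pMx against sham and 30.2% in pMx against intact. In sham against intact 8.82% of all genes were higher and 10.6% lower with that score. Median-of-ratios rescaling gave 1 higher and 1 lower in sham against intact and 15 lower in pMx against intact. Of all genes, it gave 10.1% higher and 6.95% lower in sham against intact and 27.0% lower in pMx against intact. Quantile normalization gave 2 higher and 1 lower in sham against intact, a minimum mean of 1 TPM gave 1 higher there, and a pseudocount of 0.1 gave 1 past the DEG thresholds. In that comparison 9.02% of all genes were higher and 5.97% lower with quantiles, and 8.57% higher with the minimum mean. The cause of these changes was not tested. Leaving out 1 library at a time gave 2 to 5 higher and 6 to 30 lower in pMx against sham, 0 to 3 higher and 0 to 6 lower in sham against intact, and 3 to 9 higher and 15 to 33 lower in pMx against intact. Of all genes, these fits called 12.6% to 22.0% higher and 14.4% to 23.3% lower in pMx against sham. The shares were 2.33% to 7.28% and 1.48% to 11.7% in sham against intact. In pMx against intact they were 20.0% to 22.9% and 23.0% to 31.4%. Deviations of same-numbered libraries correlated at 0.03, 0.37 and 0.48 for pMx and sham, where 2 of 3 numbers matched best with their own, at -0.49 to 0.00 for sham and intact and at -0.66 to -0.38 for pMx and intact. Since not every correlation was above 0.1, the numbers were not taken to pair the samples. With the replicate block 1 member was lower in sham against intact with 2 higher and 8 lower in pMx against sham and 3 higher and 27 lower in pMx against intact. Of all genes, the block gave 3.74% lower in sham against intact and 17.8% higher and 17.9% lower in pMx against sham. In pMx against intact it gave 23.5% higher and 26.2% lower. Of 2910 values of 54 named members under alternatives, 2755 kept their side of the threshold, of which 72 changed sign without a call in either fit, 74 lost the call and 76 gained it in the same direction. The other 5 changed sign and gained a call without intact replicate 3. Over the libraries left out one at a time, these ran from -0.23 to 0.20 for Atp5f1e and -0.22 to 0.20 for Uqcr10 in sham against intact, and from -0.35 to 0.34 for Atp5mc1, -0.23 to 0.34 for Cox5a and -0.20 to 0.23 for Atp5f1e in pMx against intact, the highest of each without that library. Depth is unknown, so low members such as Ndufa10l1 and Ndufa13-ps1 cannot be given a counting error.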

Other observations

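Genes of fuel pathways were counted from lists written from general knowledge, beside 17.7% of all genes called higher and 18.9% lower in pMx against sham and 23.4% and 27.1% in pMx against intact. Of 16 genes of fatty acid oxidation tested, limma called 7 lower and 0 higher in pMx against sham (12 and 0 at an unadjusted p below 0.05), with a median log2 fold change of -0.50 (all genes -0.01). Acaa2, the thiolase that ends each turn of the pathway, was at 66.0, 68.8 and 53.7 TPM in sham and 30.1, 29.8 and 33.2 TPM in pMx and fell by 0.99 (SE 0.13, adjusted p = 0.000534). Eci1, Echs1 and Decr1, which process the acyl chain, fell by 0.66, 0.63 and 0.59. Against intact, 11 were lower and 0 higher in pMx (12 and 0 unadjusted), and 0 passed in sham (4 lower and 1 higher unadjusted). Without intact replicate 3, the counts lower and higher were 12 and 0 in pMx against sham, 11 and 1 in pMx against intact and 2 and 1 in sham against intact. The summed white adipocyte markers, given in the report, were also lower in pMx, with 11 of 11 called lower against sham, and their part in these values was not tested.

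Of 18 genes of glycolysis and its control, 8 were higher and 0 lower in pMx against sham in limma (11 and 0 at an unadjusted p below 0.05), with a median of 0.65. Slc16a3, the exporter of lactate, was at 13.8, 14.2 and 10.1 TPM in sham and 57.2, 44.7 and 61.1 TPM in pMx, and at 9.48, 7.16 and 64.3 TPM in intact, so that intact replicate 3 lay above all pMx libraries. Its log2 fold change against sham was 2.02 (SE 0.67, adjusted p = 0.0439, limma). Pgk1, which makes ATP in glycolysis, was at 183, 187 and 146 TPM in sham and 427, 373 and 420.1 TPM in pMx and rose by 1.24 (SE 0.32, adjusted p = 0.0151). Aldoc and Eno1, enzymes of the same pathway, rose by 1.10 and 0.87. Against intact 6 were higher and 0 lower in pMx (8 and 0 unadjusted), and 0 passed in sham, also unadjusted. With intact replicate 3 left out, limma called 14 higher and 0 lower in pMx against sham, 14 and 1 in pMx against intact and 0 and 2 in sham against intact. Of 18 genes of the citric acid cycle and pyruvate dehydrogenase, 0 were higher and 2 lower in pMx against sham (Dld and Suclg2, by -0.39 and -0.24), 8 were lower in pMx against intact and 0 passed in sham. At an unadjusted p below 0.05 these counts were 0, 5, 10 and, in sham, 4 lower and 0 higher. When intact replicate 3 was left out, 3 of the 18 were called higher and 8 lower in pMx against sham, 2 and 8 in pMx against intact and 0 and 2 in sham against intact. The shares of all genes called higher and lower without that library were 22.0% and 23.3%, 22.6% and 31.4%, and 6.25% and 11.7% in these comparisons.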
